A study of Homo sapiens with 18 samples.

Results

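The human lung adenocarcinoma line A549 was studied with a short hairpin RNA against PPP2R2A, called shPPP2R2A-1, and with a scrambled control hairpin, called shcon. The comparison drew on 6 of the 18 samples of the series, 3 A549 shPPP2R2A-1 samples and 3 A549 shcon samples, chosen by their labels and not by any measured value. The other samples were A549 cells with a second hairpin against a different region of PPP2R2A (shPPP2R2A-2, 3 samples) and the lung cancer line H1299 with shPPP2R2A-1, with shPPP2R2A-2 and with shcon (3 samples each). All cells were grown in DMEM with fetal bovine serum and received no further treatment named in the labels, and polyadenylated RNA was sequenced from stranded libraries. Every cell compared therefore carried a hairpin, and a culture without a hairpin was not analysed here. The labels number the samples of a group as repeats without saying that they came from separate cultures, so each p-value measures the spread between these samples, which may be technical. A549 is an established line with an inactive KEAP1 and a deleted CDKN2A locus.

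PPP2R2A encodes B55α, a regulatory subunit of protein phosphatase 2A (PP2A). PP2A holoenzymes join a scaffold subunit (PPP2R1A or PPP2R1B), a catalytic subunit (PPP2CA or PPP2CB) and one of many regulatory subunits, which choose the substrates. PP2A with a B55 subunit removes phosphates that CDK1 placed on mitotic substrates, and during mitosis it is held inactive by ENSA and ARPP19 once MASTL (Greatwall) has phosphorylated them.

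PPP2R2A itself was lower in all 3 shPPP2R2A-1 samples. Its level was 9.04, 10.9 and 7.34 CPM (read counts scaled to library size) in shPPP2R2A-1 cells, against 83.3, 48.0 and 84.7 CPM in shcon cells. The groups did not overlap, and shcon replicate 2 was the lowest of the controls. The log2 fold change, shPPP2R2A-1 over shcon, was -2.98 (SE 0.27, adjusted p = 0.00025, from the quasi-likelihood F test of edgeR, adjusted by Benjamini and Hochberg over all genes tested, as for every adjusted p here). Genes were called changed when that adjusted p was under 0.05. The paralogous B55 subunits did not pass: PPP2R2D was 41.9, 43.1 and 62.7 CPM against 36.0, 41.2 and 35.7 CPM in shcon (adjusted p = 0.18), and PPP2R2C was 44.5, 32.5 and 29.3 CPM against 53.9, 37.3 and 48.6 CPM (adjusted p = 0.24). The main scaffold PPP2R1A (log2 fold change 0.00, adjusted p = 0.99) and the catalytic subunit PPP2CA (-0.03, adjusted p = 0.9) also did not pass. Of the inhibitory route, ENSA (0.03, adjusted p = 0.93) and ARPP19 (-0.46, adjusted p = 0.2) did not pass, and MASTL was 41.6, 45.3 and 21.9 CPM against 68.8, 55.4 and 65.7 CPM in shcon, at the edge of the threshold (-0.80, adjusted p = 0.048). Of 28 PP2A subunits and regulators tested, 6 were lower, against a background of 6.34% of all genes tested, and 1 was higher, against a background of 7.34%. Without shcon replicate 1 or without shcon replicate 3, 1 of them was lower, and 2 were without shPPP2R2A-1 replicate 3. Besides PPP2R2A, the lower ones included the B56 subunit PPP2R5C (-0.69) and the activator PPP2R4 (-0.63), and the higher one was PPME1, the methylesterase that demethylates the catalytic subunit (0.63). Those 3 calls each ended when shcon replicate 3 was left out (adjusted p = 0.072 for PPP2R5C, 0.07 for PPP2R4 and 0.13 for PPME1), while the PPP2R2A call held in each of the 14 alternatives tried.

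Across the transcriptome the hairpin was followed by rises and falls in similar number. Of 17229 genes with enough counts to test, 1265 were higher in shPPP2R2A-1 cells (7.34%) and 1092 were lower (6.34%), and the median log2 fold change of all of them was -0.02. Those 7.34% and 6.34% are the background for every list count given here. At an unadjusted p under 0.05 there were 5262 genes. Among the called genes, 919 rose and 655 fell at least 2-fold, and 175 rose and 68 fell at least 8-fold. The higher genes had a median of 11.5 CPM in shPPP2R2A-1 cells and 4.35 CPM in shcon cells, whereas the lower genes had medians of 16.7 CPM and 36.8 CPM. The median of all genes tested was 14.7 CPM in shcon cells. The shcon values also enter the calls, so these medians are no separate evidence on the expression level of the called genes. Protein-coding genes moved in both directions alike (986 higher and 1027 lower of 13653). Long intergenic noncoding RNAs were called mostly upward, 121 higher and 20 lower of 995, and annotated antisense transcripts likewise, 80 higher and 28 lower of 997. Every shPPP2R2A-1 library lay above every shcon library for 2877 genes (16.7%) and below every one for 2609 (15.1%), and 2315 of the 2357 called genes were separated in that way.

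**Figure D1:**
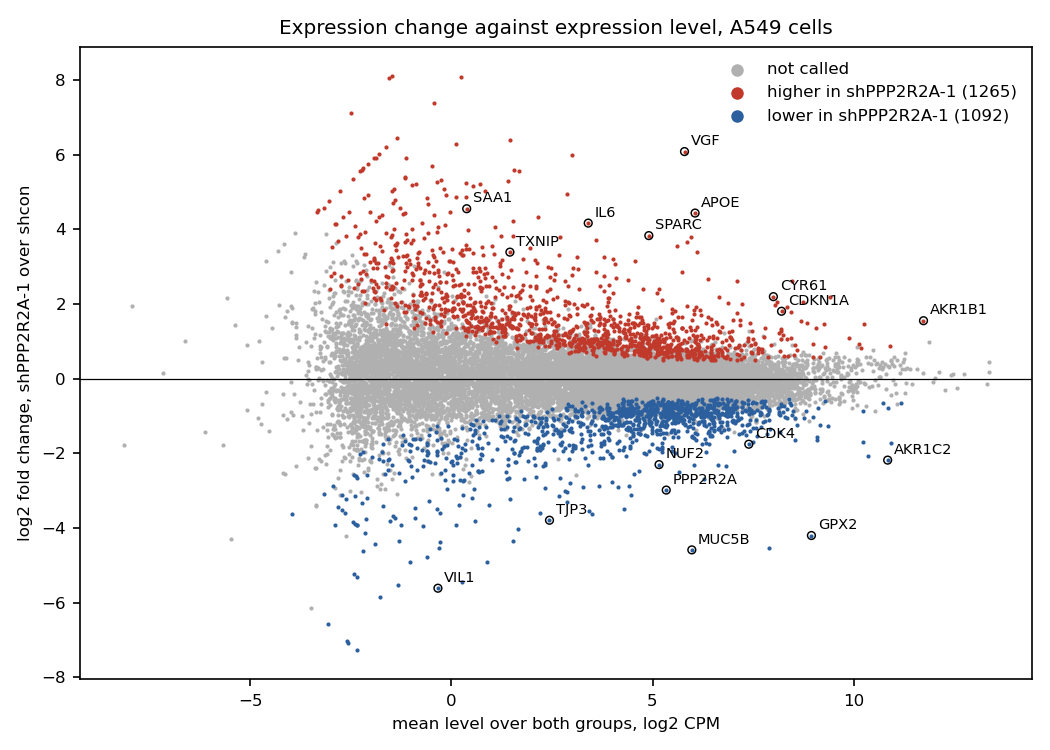
Log2 fold change of each gene, shPPP2R2A-1 over shcon, against its mean level over both groups in log2 CPM; each point is a gene, red where called higher (1265), blue where called lower (1092) and grey where not called. The highest red points, VGF among them, lie left of the most highly read called genes such as AKR1C2 and AKR1B1, whose log2 fold changes were -2.18 and 1.55.

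The 6 libraries held 40912473 to 47239167 counts in shPPP2R2A-1 cells and 48438147 to 60152098 in shcon cells. In each group 1 library stood apart: shPPP2R2A-1 replicate 3 and shcon replicate 2, described with the spread between replicates below. Of 20 leukocyte markers 7 had enough counts to test, PTPRC, CD3E and CD68 not among them. Those 7 were low in all libraries, at a summed 9.39 to 17.4 CPM in shPPP2R2A-1 cells and 11.7 to 20.5 CPM in shcon cells. The markers with too few counts were not summed. Of 16 tested genes that mark A549 and epithelial cells, 8 were lower and 1 was higher. Leaving out shcon replicate 2, shcon replicate 3 or shPPP2R2A-1 replicate 1 gave 5 lower, and leaving out shcon replicate 1 or 3 or shPPP2R2A-1 replicate 3 gave 0 higher. The lower ones included EPCAM, an epithelial adhesion molecule, at 1.66, 2.54 and 2.40 CPM against 3.20, 10.2 and 6.48 CPM in shcon (log2 fold change -1.59, adjusted p = 0.021). The keratin KRT8, at 4902, 3287 and 5159 CPM against 4553, 6691 and 5078 CPM in shcon, did not pass (adjusted p = 0.5).

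Genes of cell division were lower. Of 64 mitosis and kinetochore genes tested, 36 were lower and 0 higher, with a median log2 fold change of -1.10, and all 64 had a negative value. Of 52 DNA replication genes, 24 were lower and 0 higher (median -0.74). No member of either list was higher at an unadjusted p under 0.05 or by DESeq2, which called 52 mitotic and 34 replication genes lower. In bulk RNA, fewer cells in a given cell cycle phase and less RNA of these genes per cell cannot be told apart.

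NUF2, a subunit of the NDC80 complex that holds microtubules at the kinetochore, was 14, 16.9 and 5.29 CPM in shPPP2R2A-1 cells, against 58.6, 67.5 and 52.5 CPM in shcon cells. Every shPPP2R2A-1 library was below every control, and replicate 3 was the lowest. The log2 fold change was -2.30 (SE 0.34, adjusted p = 0.003). FOXM1, the transcription factor of the G2 and M phase genes, was 67.4, 63.9 and 30.01 CPM against 257, 168 and 189 CPM in shcon, again without overlap and lowest in replicate 3 (log2 fold change -1.93, SE 0.29, adjusted p = 0.0032). CENPM, a protein of the inner kinetochore (log2 fold change -1.25), KIF18B, a kinesin of the spindle (-1.10), and ESPL1, the separase that cuts cohesin at anaphase (-1.14), fell as well (adjusted p = 0.005, 0.0072 and 0.0081).

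Among replication genes, MCM5, a subunit of the MCM helicase, was 81.6, 70.8 and 56.2 CPM against 173, 166 and 149.99 CPM in shcon (log2 fold change -1.23, SE 0.17, adjusted p = 0.0022). The 3 libraries of each group lay close together and the groups did not overlap. POLE, the catalytic subunit of the leading-strand polymerase, was 75.5, 64.2 and 63.6 CPM against 129.6, 118 and 119.5 CPM (-0.85, SE 0.15, adjusted p = 0.0054). MCM3, another helicase subunit (-1.21, adjusted p = 0.0057), LIG1, the ligase of Okazaki fragments (-0.93, adjusted p = 0.0068), and CDT1, the factor that loads the helicase (-0.99, adjusted p = 0.011), were lower too. Of 38 homologous recombination and Fanconi anemia genes, 9 were lower and 0 higher (median -0.67; 0 higher at an unadjusted p under 0.05 and 0 by DESeq2), including RAD54L (-1.18), a motor protein of strand exchange, and XRCC3 (-0.90), which acts in the same pathway. BLM, a helicase that undoes recombination intermediates, was 23.8, 21.1 and 9.40 CPM against 44.9, 38.7 and 44.6 CPM in shcon (-1.24, adjusted p = 0.019), and its call ended without shcon replicate 3 (adjusted p = 0.06). Nucleotide supply had 3 of 30 members lower (10.0%, against 6.34% of all genes), a share close to the background. They included TK1 (thymidine kinase, -0.92) and SHMT1 (serine hydroxymethyltransferase, -0.75). Of 18 checkpoint kinases and partners only PKMYT1, which phosphorylates CDK1 to restrain it, was called (-0.85), and its call ended when shcon replicate 1 or shPPP2R2A-1 replicate 2 was left out, with the 6 libraries alone and with all 18 in the fit (adjusted p up to 0.088).

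The regulators of the G1 to S step moved in both directions. CDK4, the kinase that works with D cyclins, was 88.0, 75.9 and 66.5 CPM against 299, 239.6 and 239 CPM in shcon (log2 fold change -1.76, SE 0.17, adjusted p = 0.00046), with each shPPP2R2A-1 value far below the lowest control. TFDP1, the partner that E2F factors need for DNA binding, was 48.2, 38.3 and 29.0 CPM against 158, 99.9 and 131 CPM (-1.75, adjusted p = 0.0024). Of 17 E2F and RB family genes 6 were lower, among them E2F8 (-2.32), a repressing E2F, and of 16 G1 cyclins, kinases and inhibitors 3 were lower and 2 higher. Cyclin E2 (CCNE2, -2.16) and the CDK4 inhibitor CDKN2C (-2.09) were lower. Cyclin D1 (CCND1) was higher, at 654, 524 and 841 CPM against 459, 229 and 367 CPM in shcon (0.94, adjusted p = 0.03), a call that ended without shcon replicate 3 (adjusted p = 0.083) or when shPPP2R2A-1 replicate 3 was left out (0.085).

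The size of the cell cycle lists rested on which libraries were compared. Without shcon replicate 3, 15 mitotic and 7 replication genes were lower, and without shcon replicate 2 there were 50 and 29. Without shcon replicate 1 there were 16 and 10, without shPPP2R2A-1 replicate 3 the replication genes numbered 14, and with both libraries that stood apart left out there were 49 mitotic and 26 replication genes lower. The 9 lower recombination genes became 3 without shcon replicate 3, 4 without shcon replicate 1 and 16 without shcon replicate 2. The 6 lower E2F and RB family genes became 2 without shcon replicate 1, shcon replicate 3 or shPPP2R2A-1 replicate 2. Of the G1 list 6 were lower when shcon replicate 2 was left out, and 1 was higher when shcon replicate 3 or shPPP2R2A-1 replicate 3 was.

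Promoters of some of these genes are printed because they hold short words known as sites of cell cycle factors. TTTGAA is the core of the cell cycle genes homology region, to which the DREAM and FOXM1 complexes are recruited, and TTTNNCGC is the core of E2F sites. The words were chosen after the calls were seen, both strands were searched over the 250 bases before each RefSeq start on GRCh38.p14, and a match describes the letters and is not a bound site. TTTGAA was in the window of 17 of 31 called mitotic genes with a promoter in the table, in 9 of 20 mitotic genes that were not called, and in 13.6% of all 27305 promoters and 8.57% of the 10551 of tested genes. The 5 called holders with the smallest adjusted p follow, ESPL1 and 4 named here for that reason after their values were seen: NCAPD2 (condensin, log2 fold change -1.48), PLK1 (polo kinase, -1.38), INCENP (chromosomal passenger complex, -1.38) and SPC25 (NDC80 complex, -1.37). Each stretch runs 5′ to 3′ on the gene's strand with TTTGAA, or its reverse complement, in capitals. The stretches are chr12:53268238-53268298 on the plus strand, chr12:6493927-6493992 on the plus strand, chr16:23678830-23678888 on the plus strand, chr11:62123971-62124010 on the plus strand and chr2:168890642-168890680 on the minus strand.
ESPL1: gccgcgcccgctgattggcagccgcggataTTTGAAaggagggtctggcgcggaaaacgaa
NCAPD2: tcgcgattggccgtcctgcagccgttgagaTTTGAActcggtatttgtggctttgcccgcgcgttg
PLK1: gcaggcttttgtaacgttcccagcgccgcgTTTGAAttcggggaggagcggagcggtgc
INCENP: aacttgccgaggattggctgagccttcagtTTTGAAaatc
SPC25: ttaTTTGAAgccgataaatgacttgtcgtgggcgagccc
The capitals begin 31, 145, 29, 10 and 247 bases before the start in that order. TTTNNCGC was in 8 of 20 called replication genes with a promoter, in 7 of 24 not called, and in 5.93% of all promoters (8.69% of those of tested genes). The 3 called holders with the smallest adjusted p follow, at chr12:132687343-132687390, chr6:52284855-52284922 and chr19:48170421-48170488, all on the minus strand. CDT1 also held the word, and its stretch is not printed. In capitals is the match of the E2F word, in either orientation, nearest the start. The MCM3 window holds 2 matches, and the other one stands in lower case in the printed stretch.
POLE: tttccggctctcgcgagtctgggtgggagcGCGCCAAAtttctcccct
MCM3: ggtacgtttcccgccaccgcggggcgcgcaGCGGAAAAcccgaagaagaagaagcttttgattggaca
LIG1: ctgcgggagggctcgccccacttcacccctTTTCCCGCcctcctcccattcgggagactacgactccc

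Many genes known to be induced by DNA damage, with roles in growth arrest, repair and cell death, rose. Of 34 tested 17 were higher and 0 lower (median log2 fold change 0.65; none was lower at an unadjusted p under 0.05 or by DESeq2), and leaving out single libraries gave 13 to 15 higher. CDKN1A, which encodes the CDK inhibitor p21, was 426, 372 and 580.2 CPM in shPPP2R2A-1 cells, against 148, 106 and 140.4 CPM in shcon cells. All 3 values were above every control (log2 fold change 1.81, SE 0.22, adjusted p = 0.0014). The antiproliferative gene BTG2 was 34.1, 33.1 and 51.7 CPM against 12.7, 11.2 and 13.8 CPM in shcon (1.66, SE 0.22, adjusted p = 0.002). SESN1 (1.21) and SESN2 (1.65), sestrins that restrain mTORC1, the kinase PLK2 (1.06) and MDM2, a ubiquitin ligase (0.90), were also higher, with adjusted p of 0.0027, 0.0054, 0.0032 and 0.0075. BAX, a pore-forming death effector, did not pass (0.31, adjusted p = 0.29).

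Genes of the BCL2 family and death receptors included both kinds of regulator. Of 35 tested, 9 were higher and 3 lower, and the number higher was 3 when shPPP2R2A-1 replicate 2 was left out, 4 when shcon replicate 3 was and 5 when shPPP2R2A-1 replicate 1 or replicate 3 was. BMF, a BH3-only protein that promotes cell death, was 9.15, 10.1 and 15.8 CPM against 0.531, 1.62 and 1.37 CPM in shcon (3.30, SE 0.40, adjusted p = 0.0014). BCL2A1, a survival factor and NF-kB target, was 3.80, 10.8 and 27.9 CPM against 0.573, 0.548 and 0.261 CPM (4.95, SE 0.65, adjusted p = 0.002), highest in replicate 3 and above every control in each library. PMAIP1 (NOXA), a BH3-only protein, rose by 0.95, whereas BAK1, a pore-forming effector (-0.81), and BCL2L15 (-2.22) fell (adjusted p = 0.01, 0.012 and 0.0058).

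The called feedback genes of the ERK pathway and targets of YAP and TEAD were all higher. Of 26 ERK feedback genes 8 were higher and 0 lower (median 0.70), of 26 YAP-TEAD targets 6 and 0 (median 0.41), and of 29 AP-1 and immediate early genes 6 and 1 (median 0.02). DESeq2 called 1 ERK and 1 YAP-TEAD gene lower, and the same numbers were lower at an unadjusted p under 0.05. DUSP5, a nuclear ERK phosphatase, was 151, 264 and 306 CPM against 45.5, 84.5 and 50.1 CPM in shcon (2.0, SE 0.34, adjusted p = 0.0048). The groups did not overlap. FOSL1, an AP-1 subunit, was 98.5, 141 and 471 CPM against 57.3, 35.8 and 22.2 CPM (2.62, SE 0.52, adjusted p = 0.0095), far higher in replicate 3 than in the other two. SPRY2, an inhibitor of receptor tyrosine kinase signalling (1.16), SPHK1, sphingosine kinase (2.5), and TMEM158, a membrane protein (2.87), were higher too. HBEGF, a ligand of the EGF receptor, was 11.1, 16.4 and 18.3 CPM against 3.08, 3.21 and 2.41 CPM in shcon (2.40, SE 0.25, adjusted p = 0.0007), the smallest p of 16 EGF ligands and ERBB genes, of which 2 were higher and none lower (5 at an unadjusted p under 0.05 and 4 by DESeq2).

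CYR61, a secreted matrix protein and YAP target, was 240.0, 367 and 658 CPM against 78.9, 122 and 75.3 CPM in shcon. Every shPPP2R2A-1 library lay above every control, and replicate 3 was the highest (log2 fold change 2.2, SE 0.34, adjusted p = 0.0033). The Hippo kinase LATS2 (1.00, adjusted p = 0.0075) and FJX1 (1.75, adjusted p = 0.0096) were also higher. TGFB2, a TGF-β ligand, was 178, 177 and 146 CPM against 94.2, 42.1 and 74.3 CPM (1.25, adjusted p = 0.01), and its receptor TGFBR1 was 168, 113 and 149 CPM against 72.4, 39.9 and 65.3 CPM (1.27, adjusted p = 0.0065). INHBB, which encodes an activin and inhibin subunit, went the other way, at 17.8, 15.8 and 12.7 CPM against 58.3, 53.4 and 67.4 CPM (-1.95, adjusted p = 0.00088). Of 28 ligands, receptors and targets of TGF-β, 7 were higher and 2 lower, at a median of 0.07. The FOSL2, IER5, MAFK, TGFBI and ANKRD1 calls ended without shcon replicate 3 (adjusted p = 0.055, 0.056, 0.057, 0.063 and 0.052). Without it 2 AP-1 genes, 5 ERK feedback genes and 3 TGF-β genes were higher.

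Many genes of the extracellular matrix, its proteases and the mesenchymal state were higher. Collagens and their processing enzymes had 13 of 35 members higher and 1 lower (median 0.86), and extracellular proteases and inhibitors 12 of 33 higher and 1 lower (median 0.78). Regulators and markers of epithelial to mesenchymal transition (EMT) had 5 of 15 higher and 0 lower (median 0.59). At an unadjusted p under 0.05, 1 was lower, and 0 were by DESeq2. The 5 were SNAI1, SNAI2, SPARC, TNC and MMP2, and MMP2 was also in the protease list. SNAI1 kept its call in 6 of 14 alternatives (adjusted p up to 0.14). SPARC, a secreted collagen-binding protein, was 46.9, 40.8 and 80.6 CPM in shPPP2R2A-1 cells, against 3.88, 4.06 and 3.86 CPM in shcon cells. The controls were nearly equal and every shPPP2R2A-1 library lay far above them (log2 fold change 3.83, SE 0.36, adjusted p = 0.00045). P4HA2, a collagen prolyl hydroxylase, was 119, 115 and 142 CPM against 67.3, 53 and 50.7 CPM (1.14, adjusted p = 0.0076), and COL7A1, the anchoring fibril collagen, was 291, 226 and 812 CPM against 149, 83.6 and 87.2 CPM (2.05, adjusted p = 0.011). Replicate 3 was the highest for both. LAMA4, a laminin chain, rose by 3.55 and LOXL4, a lysyl oxidase, by 1.67, while COL4A3, a basement membrane collagen, fell (-2.06).

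CPA4, a secreted carboxypeptidase, was 78.0, 89.4 and 182 CPM against 16, 2.87 and 6.29 CPM in shcon (3.80, SE 0.56, adjusted p = 0.0029). All shPPP2R2A-1 values were above the controls, among which shcon replicate 1 was the highest. PLAU, the urokinase that activates plasminogen, was 377, 575 and 1103 CPM against 247, 125 and 124 CPM (2.05, SE 0.37, adjusted p = 0.0068). ADAM12, a metalloprotease, was higher (1.98) and ADAMTS9, a proteoglycanase, was lower (-2.44). SNAI2, a repressor that drives EMT, was 7.10, 6.37 and 6.17 CPM against 2.02, 0.850 and 0.668 CPM (2.48, SE 0.44, adjusted p = 0.0057), and neither ZEB1, another such repressor (-0.25, adjusted p = 0.67), nor E-cadherin, CDH1 (34.5, 53 and 36.7 CPM against 44.5, 59.7 and 86.9 CPM, adjusted p = 0.13), nor vimentin, VIM (1419, 1582 and 2401 CPM against 1422, 997 and 773 CPM, adjusted p = 0.087), nor fibronectin, FN1 (0.02, adjusted p = 0.96), passed. Of 30 SRF targets and actin genes 8 were higher and 2 lower, with 3 higher when shcon replicate 3 was left out, 4 when shPPP2R2A-1 replicate 3 was and 5 when shcon replicate 2 was. Smooth muscle actin ACTA2 was 38.7, 39.1 and 51.6 CPM against 15, 19.2 and 13.3 CPM in shcon (1.45, adjusted p = 0.002), tropomyosin TPM1 rose by 1.45, and the microvillus protein VIL1 was near 0 in shPPP2R2A-1 cells (0.0216, 0.0413 and 0.0245 CPM) against 0.509, 2.32 and 1.84 CPM in shcon.

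Fibroblast markers bear on these lists: 8 of 12 could be tested, 4 were higher (FAP, COL1A1, THY1 and LUM) and 1 lower (FBLN1). The summed level of the 8 tested was 61.8 to 97.8 CPM in shPPP2R2A-1 cells and 69.5 to 77.9 CPM in shcon cells. Of 11 endothelial markers only 2 could be tested, with VWF and KDR among those that could not. The 2 tested summed to 5.80, 10.5 and 42.9 CPM against 10.1, 6.90 and 9.94 CPM in shcon. FAP was 0.582, 0.949 and 0.587 CPM against 0.0424, 0.113 and 0.0326 CPM. Their part in the matrix counts was not tested. Without shcon replicate 3 the higher members numbered 5 collagens, 4 proteases and 2 EMT genes (8, 7 and 3 without shPPP2R2A-1 replicate 3), and the calls of MMP2, TNC and COL1A1 ended (adjusted p = 0.051, 0.11 and 0.055).

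**Figure D2:**
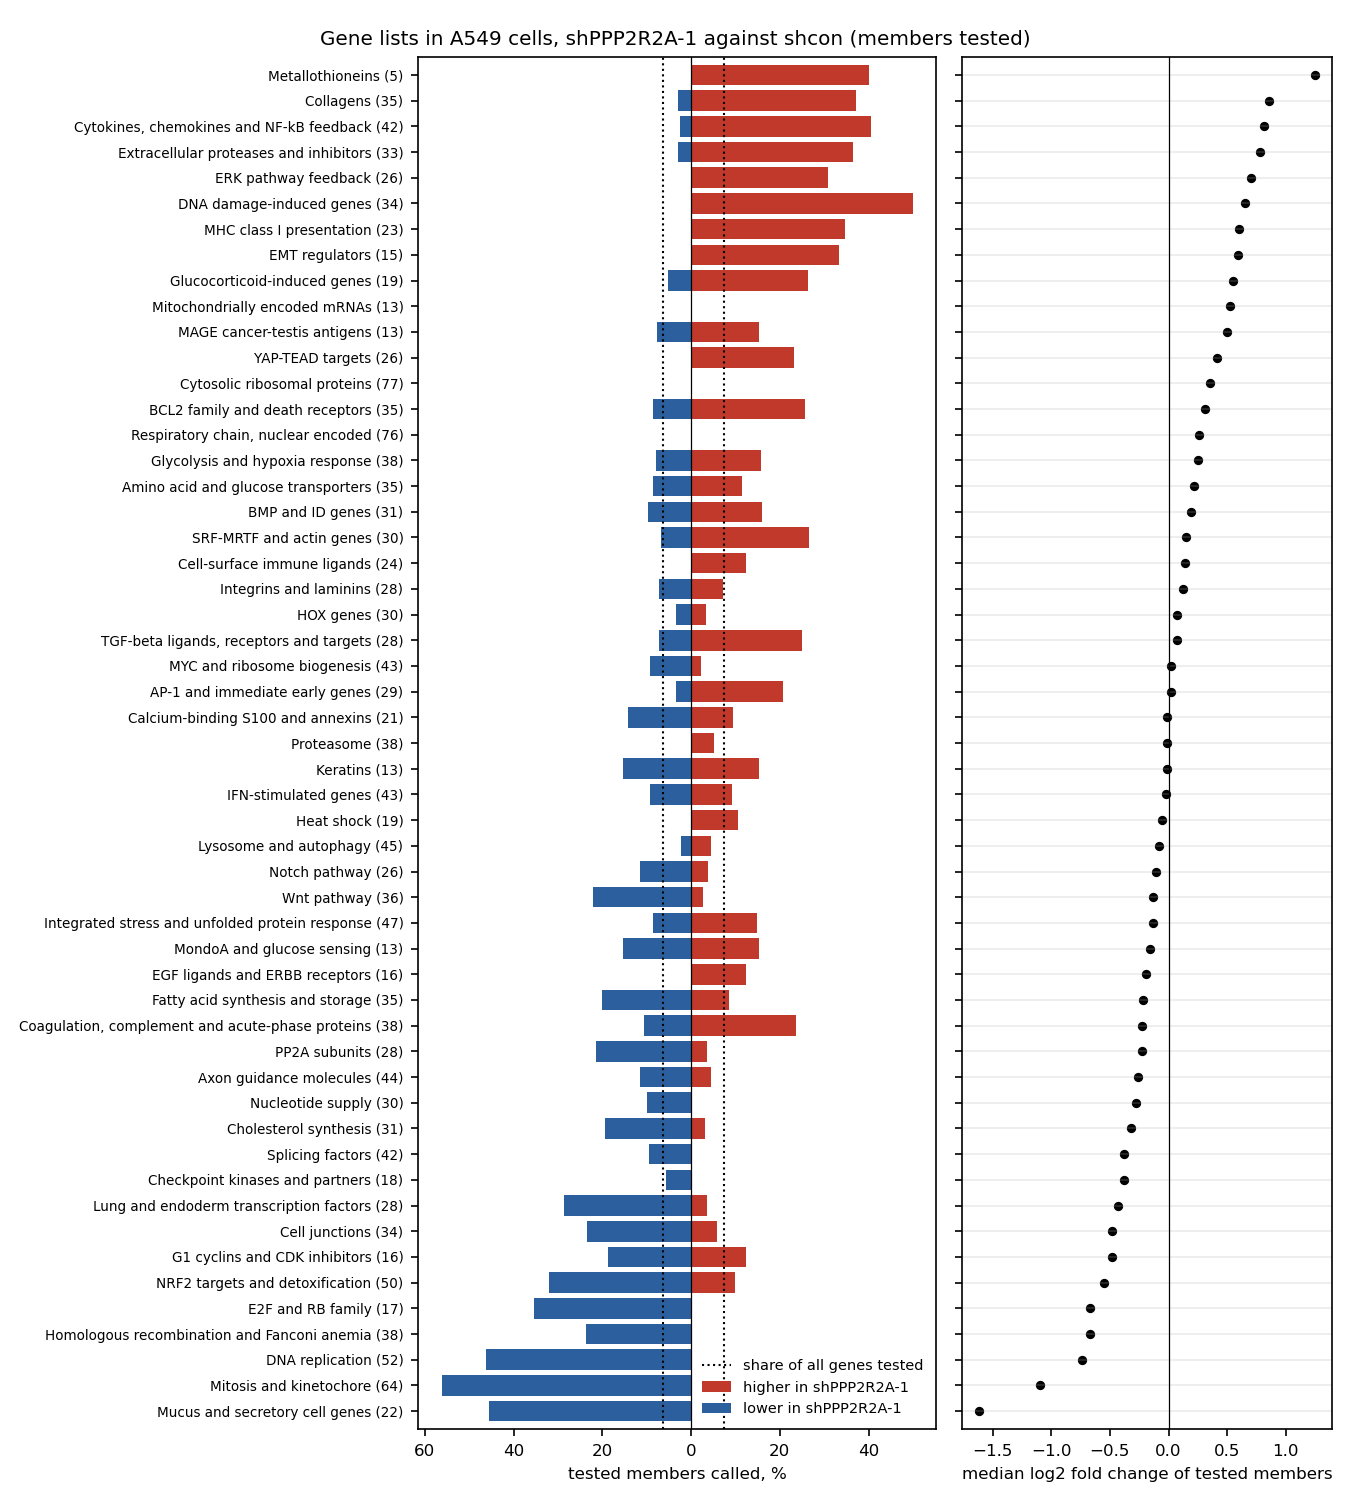
Left, percentage of tested members of each gene list called higher (red, right of 0) or lower (blue, left of 0) in shPPP2R2A-1 cells, with dotted lines at the shares of all genes tested (7.34% and 6.34%); right, the median log2 fold change of the tested members. Mitosis has the largest share of lower members (56.2%) and DNA damage-induced genes the largest share of higher ones among the lists shown (50%).

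Many genes of mucus-secreting epithelium fell. Of 22 mucus and secretory cell genes with enough counts, out of 38 listed, 10 were lower and 0 higher (median -1.62), and none was higher at an unadjusted p under 0.05 or by DESeq2. MUC5B, a gel-forming mucin, was 7.03, 3.34 and 4.72 CPM in shPPP2R2A-1 cells, against 38.4, 196 and 129 CPM in shcon cells. All 3 shPPP2R2A-1 values were low and close together, while the controls spread widely, with shcon replicate 1 the lowest (log2 fold change -4.59, SE 0.57, adjusted p = 0.0016). SPDEF, a transcription factor of goblet cells, was 4.79, 4.33 and 6.46 CPM against 18.2, 58.2 and 37.1 CPM (-2.87, SE 0.37, adjusted p = 0.0019), with the same order among controls. FCGBP, a mucus protein (-3.53), ST6GALNAC1, a sialyltransferase of mucins (-4.02), CREB3L4 (-1.3) and CEACAM6, an epithelial adhesion molecule (-3.49), fell as well. In shcon replicate 1 the median of the mucus list was -1.17 log2 units below the mean of the shcon libraries, against -1.58, -1.3 and -1.45 in the shPPP2R2A-1 libraries, so 1 control lay near them. Without shcon replicate 3, 5 mucus genes were lower.

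HNF4A, a transcription factor of endodermal epithelia, was 10.1, 7.12 and 6.85 CPM against 21.7, 22.6 and 21.7 CPM in shcon (-1.45, SE 0.19, adjusted p = 0.002). Both groups were tight and did not overlap. SOX9, a progenitor factor of the lung, fell (-1.26, adjusted p = 0.012). In all, 8 of 28 lung and endoderm transcription factors were lower and 1 higher, but the FOXA3, ELF3 and EHF calls ended without shcon replicate 3 (adjusted p = 0.053, 0.078 and 0.15), and with both libraries that stood apart left out 2 were lower, 3 when either shPPP2R2A-1 replicate 2 or 3 was, and 5 when shcon replicate 2 was. Of 34 cell junction genes 8 were lower and 2 higher (median -0.48), and 3 were lower without shcon replicate 3, and 5 when either shPPP2R2A-1 replicate 2 or 3 was left out. The tight junction scaffold TJP3 was 0.863, 0.825 and 0.490 CPM against 2.27, 15.7 and 12.4 CPM in shcon (-3.79, SE 0.62, adjusted p = 0.0045). CRB3, which sets apical polarity (-1.60), and the desmosomal plakophilin PKP3 (-0.83) were lower, whereas claudin CLDN1 was higher, at 127, 137 and 166 CPM against 74.2, 43.2 and 63.2 CPM (1.25, adjusted p = 0.013).

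Of 38 coagulation, complement and acute-phase genes, many of them hepatic, 9 were higher and 4 lower, with a median of -0.23, against backgrounds of 7.34% and 6.34%. The lower ones numbered 12 when shcon replicate 1 was left out, 0 when shcon replicate 3 was, 1 or 2 when any other library was, and 10 by DESeq2, so their number was not stable. APOE, a lipoprotein component, was 68.1, 50.7 and 263 CPM against 4.46, 9.26 and 3.93 CPM in shcon (4.44, SE 0.65, adjusted p = 0.0028). It was above all controls in every library and highest in replicate 3. ANGPTL4, an inhibitor of lipoprotein lipase, was 63.0, 49.3 and 169 CPM against 14.4, 16.2 and 8.36 CPM (2.85, adjusted p = 0.003). HPX, the heme-binding hemopexin (3.83), SERPINF1 (2.97) and the acute-phase protein SAA1 (4.55) were also higher, with every shcon library under 3 CPM.

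NRF2 targets and detoxifying enzymes, known to be high in A549 because KEAP1 is inactive, included more members that fell than that rose. Of 50 tested 16 were lower and 5 higher (median -0.55), and leaving out single libraries gave 10 (without shcon replicate 3) to 18 lower. AKR1C2, an aldo-keto reductase, was 859.9, 775 and 358 CPM against 2157, 3633 and 3248 CPM in shcon (-2.18, SE 0.31, adjusted p = 0.0026). AKR1C3 was 574, 589 and 349 CPM against 1496, 2878 and 2017 CPM (-2.08, SE 0.27, adjusted p = 0.002), and AKR1C1 fell (-1.70). No library of one group reached the other for any of them. AKR1B10, a retinal and aldehyde reductase, was 1224, 1029 and 459 CPM against 2461, 3356 and 3155 CPM (-1.73, adjusted p = 0.0057), while its relative AKR1B1, aldose reductase, was higher at 3419, 4827 and 7007 CPM against 2023, 1743 and 1433 CPM (1.55, SE 0.26, adjusted p = 0.0046). The AKR1C genes are close copies, and so are AKR1B10 and its neighbours, so counting may have split their reads and the single values are uncertain. NQO1, a quinone reductase and NRF2 target, did not pass (1884, 2273 and 1433 CPM against 2062, 2833 and 2352 CPM, adjusted p = 0.24), and neither did NFE2L2, which encodes NRF2 (-0.43, adjusted p = 0.36).

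GPX2, the epithelial glutathione peroxidase, fell furthest of the named NRF2 list members, at 63.0, 67.5 and 22.3 CPM against 304, 1609 and 900.5 CPM in shcon (-4.20, SE 0.57, adjusted p = 0.0021). Controls ranged widely and replicate 3 was the lowest of all 6 libraries. Its promoter is shown because it holds TGACNNNGC, the core of the antioxidant response element, which was in 4 of 11 called-lower NRF2 list members with a promoter, in 5 of 22 that were not called, and in 11% of all promoters (12% of those of tested genes). The stretch lies at chr14:64942829-64942897 on the minus strand, with the element in capitals 122 bases before the start.
GPX2: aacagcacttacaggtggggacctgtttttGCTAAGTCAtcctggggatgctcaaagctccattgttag

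Metabolic regulators changed in several branches. Of 31 genes of cholesterol synthesis and its control 6 were lower and 1 higher (median -0.32), and of 35 of fatty acid synthesis and storage 7 and 3 (median -0.22). SREBF1, the transcription factor of lipid synthesis, was 64.6, 68.6 and 89.3 CPM against 126, 259 and 241 CPM in shcon (-1.49, SE 0.29, adjusted p = 0.0083). PMVK, phosphomevalonate kinase (-1.44), fell, and the cholesterol exporter ABCG1 was 0.0431, 0.0619 and 0.0490 CPM against 0.509, 3.74 and 2.82 CPM. PLIN2, the lipid droplet coat, was higher (0.97, adjusted p = 0.0058). The fall of the desaturase SCD, 426, 498 and 227 CPM against 669, 1035 and 1080.1 CPM (-1.27, adjusted p = 0.017), ended as a call without shcon replicate 3 (adjusted p = 0.061), where 1 fatty acid gene was lower, and 4 were without shPPP2R2A-1 replicate 2. Among 38 glycolysis and hypoxia genes 6 were higher and 3 lower (15.8% and 7.89%), the lower share again close to the background. PFKFB4, a regulator of glycolysis, was 44.8, 58.1 and 219 CPM against 9.47, 10.1 and 5.72 CPM (3.67, SE 0.55, adjusted p = 0.003), and adrenomedullin, ADM, rose by 2.67, both highest in replicate 3. The glucose transporter SLC2A1 was lower, at 90.6, 65.0 and 59.9 CPM against 188, 127 and 167 CPM (-1.16, adjusted p = 0.0068), as was carbonic anhydrase CA12 (-1.03).

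TXNIP, an arrestin that limits glucose uptake, was 4.64, 3.42 and 6.98 CPM in shPPP2R2A-1 cells, against 0.255, 0.472 and 0.684 CPM in shcon cells. Each shPPP2R2A-1 value exceeded each control (log2 fold change 3.39, SE 0.47, adjusted p = 0.0024), as for its relative ARRDC4 (2.52, adjusted p = 0.011). Both are targets of the glucose sensor MondoA, and the rest of that list of 13 had 2 members lower. The TXNIP promoter is printed for its carbohydrate response element (paired E-boxes). Of the 2 called-higher members, both with a promoter, 1 held that word, TXNIP and not ARRDC4. It was in 0 of 7 uncalled members and 0.0586% of all promoters (0.104% of those of tested genes). The stretch lies at chr1:145996621-145996697 on the minus strand, with the element in capitals 88 bases before the start.
TXNIP: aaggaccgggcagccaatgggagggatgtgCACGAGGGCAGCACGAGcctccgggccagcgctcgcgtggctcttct

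Of 36 Wnt pathway genes 8 were lower and 1 higher. RNF43, a ubiquitin ligase that removes Wnt receptors and is itself a Wnt target, was 6.30, 9.63 and 4.28 CPM against 25.2, 39.8 and 53.4 CPM in shcon (-2.55, SE 0.38, adjusted p = 0.003). The feedback gene AXIN2 was 1.77, 2.10 and 1.30 CPM against 4.41, 9.84 and 10.5 CPM (-2.26, SE 0.34, adjusted p = 0.0032). Neither gene's groups overlapped. LGR6 and ZNRF3 lost their calls without shcon replicate 3 (adjusted p = 0.052 and 0.088), and 2 Wnt genes were lower there, 4 when shPPP2R2A-1 replicate 2 was left out, and 5 when shPPP2R2A-1 replicate 3 or shcon replicate 1 was.

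Of 47 genes of the integrated stress and unfolded protein responses 7 were higher and 4 lower (14.9% and 8.51%, against 7.34% and 6.34% of all genes), at a median of -0.13. Leaving out shcon replicate 3 gave 4 higher, and leaving out shPPP2R2A-1 replicate 3 gave 2 lower. STC2, a secreted stanniocalcin, was 86.8, 92.4 and 163 CPM against 41.7, 27.5 and 26.8 CPM in shcon (1.83, adjusted p = 0.0028), and DDIT4, an inhibitor of mTORC1, rose by 1.01. The endoplasmic reticulum proteins CRELD2 (-1.36) and PDIA4 (-1.04) were lower. The autophagy kinase ULK1 was 19.5, 13.3 and 22.7 CPM against 52.8, 51.6 and 43.4 CPM (-1.41, SE 0.21, adjusted p = 0.0032), in a list of 45 lysosome and autophagy genes with 2 higher (0 without shcon replicate 3) and 1 lower. The metal-binding metallothionein MT2A was 340.3, 281 and 1214 CPM against 126, 116 and 59.4 CPM (2.60, adjusted p = 0.013), far above the rest in replicate 3, and its call ended without shcon replicate 3 (adjusted p = 0.053).

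Many inflammatory genes rose. Of 42 cytokines, chemokines and NF-kB feedback genes 17 were higher and 1 lower (median 0.81), and leaving out single libraries gave 9 (without shcon replicate 3) to 21 higher. IL6 was 8.15, 26.1 and 25.8 CPM against 1.19, 1.64 and 0.521 CPM in shcon (4.17, SE 0.60, adjusted p = 0.0027), with replicate 1 lower than the other two and still above every control. The chemokine CCL2 was 29.6, 37.2 and 69.0 CPM against 12.3, 7.48 and 6.03 CPM (2.40, SE 0.34, adjusted p = 0.0024). SOD2, the mitochondrial superoxide dismutase induced by NF-kB, was 182, 171 and 186 CPM against 77.0, 64.2 and 81.2 CPM (1.28, SE 0.16, adjusted p = 0.0015), with little spread in either group. TNFAIP3, the feedback inhibitor A20, was 14.1, 23.2 and 32.7 CPM against 5.79, 6.33 and 5.86 CPM (1.96, adjusted p = 0.0025), and the cytokine IL11 rose by 3.56. The 7 tested leukocyte markers summed to 9.39 to 17.4 CPM in shPPP2R2A-1 cells and 11.7 to 20.5 CPM in shcon cells.

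The promoters of IL6 and TNFAIP3 are shown for a 10-base NF-kB word, found in 5 of 12 called-higher members with a promoter, in 8 of 20 not called and in 1.73% of all promoters (1.91% of those of tested genes). They lie at chr7:22727097-22727166 and chr6:137867174-137867243, both on the plus strand. In capitals is the match, in either orientation, nearest the start. The TNFAIP3 window holds 2 matches, and the other one stands in lower case in the printed stretch.
IL6: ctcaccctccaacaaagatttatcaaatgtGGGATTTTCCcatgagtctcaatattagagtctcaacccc
TNFAIP3: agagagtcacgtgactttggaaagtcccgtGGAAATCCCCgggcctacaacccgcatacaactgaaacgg

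Of 23 genes of MHC class I presentation 8 were higher and 0 lower (median 0.60; 1 lower at an unadjusted p under 0.05 and 1 by DESeq2). TAP1, a peptide transporter, was 71.4, 82.9 and 109 CPM against 46.2, 44.8 and 41.3 CPM in shcon (0.99, SE 0.19, adjusted p = 0.0079), and the immunoproteasome subunit PSMB9 was 18.5, 21.7 and 36.7 CPM against 10.1, 10.8 and 8.70 CPM (1.38, SE 0.25, adjusted p = 0.0072). Both were separated from the controls. Without shcon replicate 3, 2 members were higher (5 when either shPPP2R2A-1 replicate 2 or 3 was left out), and the calls of TAP2 and B2M ended (adjusted p = 0.057 and 0.074). Of 43 interferon-stimulated genes 4 were higher and 4 lower (9.3% each way, against 7.34% and 6.34% of all genes), with a median of -0.02, so their shares were close to the background. When shcon replicate 3 was left out 2 were higher and 1 lower, and 1 or 2 were lower when shcon replicate 2 or any single shPPP2R2A-1 library was. TRIM22, an antiviral ubiquitin ligase, was 13.9, 10.1 and 12.6 CPM against 1.99, 2.29 and 4.67 CPM (2.02, adjusted p = 0.0064), and OAS3, a sensor of double-stranded RNA, was 104, 97.1 and 66.7 CPM against 203, 127 and 168 CPM (-0.90, adjusted p = 0.019; 0.059 without shcon replicate 3). ISG15, a ubiquitin-like protein (0.68, adjusted p = 0.43), did not pass. The checkpoint ligands CD274 (PD-L1, 1.43) and PDCD1LG2 (PD-L2, 5.16) were higher, CD274 at 3.02, 4.58 and 6.76 CPM against 1.46, 2.13 and 1.71 CPM with its call ending without shcon replicate 3 (adjusted p = 0.065). PDCD1LG2 averaged fewer than 100 counts, and its log2 fold change ran from 4.53 to 6.55 over the 13 alternatives that gave it a value.

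Large housekeeping families gave no calls or few. None of 77 cytosolic ribosomal protein genes (median 0.35), 76 nuclear-encoded respiratory chain genes (0.26) and 13 mitochondrially encoded mRNAs (0.52) was called in edgeR's fit, though without shcon replicate 2 11, 13 and 11 of them were higher. At an unadjusted p under 0.05 there were 12 ribosomal genes higher and 3 lower, 4 and 2 respiratory chain genes, and 0 mitochondrial mRNAs. DESeq2 called 2 and 3, 1 and 0, and 0. The share of counts on mitochondrially encoded genes was 0.249%, 0.394% and 0.486% in shPPP2R2A-1 cells, against 0.178%, 0.552% and 0.183% in shcon cells, so shcon replicate 2 was the highest of all. Of 42 splicing factors 4 were lower (9.52%, against 6.34% of all genes), and 0 or 1 were when shcon replicate 1, shcon replicate 3 or shPPP2R2A-1 replicate 3 was left out. Of 43 MYC and ribosome biogenesis genes 4 were lower and 1 higher (9.3% and 2.33%, against 6.34% and 7.34% of all genes). In this list 1 or 2 were lower when shcon replicate 1 or 3 or shPPP2R2A-1 replicate 2 or 3 was left out. MYC itself did not pass (101, 114 and 129.5 CPM against 119.7, 72.8 and 91.9 CPM in shcon, adjusted p = 0.42). Among HOX genes HOXB9 was higher (1.57, adjusted p = 0.0021) and HOXC10 lower (-2.17, adjusted p = 0.0064), the only 2 calls of 30. Of 44 axon guidance genes 5 were lower and 2 higher (11.4% and 4.55%, against 6.34% and 7.34% of all genes). The lower ones included the semaphorin receptor PLXNA2 (-1.87, adjusted p = 0.0021). FSTL1, a secreted binder of BMP and TGF-β ligands, was 78.0, 83.5 and 116 CPM against 30.4, 18.2 and 23.5 CPM (1.94, SE 0.23, adjusted p = 0.0014). Its list of 31 BMP and ID genes had 5 higher and 3 lower (16.1% and 9.68%, against 7.34% and 6.34% of all genes).

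The largest changes among well-read genes belonged to no single programme. VGF, the precursor of neuroendocrine secreted peptides, had the largest rise, at 39.8, 33.8 and 255 CPM in shPPP2R2A-1 cells, against 2.25, 1.91 and 0.717 CPM in shcon cells. It was far above the controls in every library, and replicate 3 was several times the other two (log2 fold change 6.08, SE 0.93, adjusted p = 0.0032). MAGEB6, a cancer-testis antigen, was 5.13, 5.49 and 6.81 CPM against 0.170, 0.0945 and 0.0977 CPM (5.58, SE 0.45, adjusted p = 0.00024), and here the 3 libraries were alike. DAW1, an assembly factor of ciliary dynein (5.31), the epidermal protein SBSN (5.57), TRIM67 (4.33), the pseudogene POM121L9P (4.21) and EVI2B (3.82), a membrane protein known from blood cells, followed. POM121L9P and the MAGE genes have close copies, so their values are uncertain.

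On the other side, CPLX2, a complexin of the exocytosis machinery, was 22.9, 24.9 and 10.8 CPM in shPPP2R2A-1 cells, against 304, 560.4 and 503 CPM in shcon cells. All libraries of each group lay well apart (log2 fold change -4.54, SE 0.39, adjusted p = 0.00024). PRODH, the proline dehydrogenase of mitochondria, was 2.01, 1.26 and 1.81 CPM against 9.13, 29.5 and 24.5 CPM (-3.64, SE 0.41, adjusted p = 0.00096). ANKS4B (-4.34), a scaffold of epithelial microvilli, the cytochrome P450 CYP4F12 (-3.61), the receptor EPHB3 (-3.38) and C9orf152 (-4.92) also fell. For C9orf152 and CYP4F12, as for MUC5B and GPX2, shcon replicate 1 was the lowest control.

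**Figure D3:**
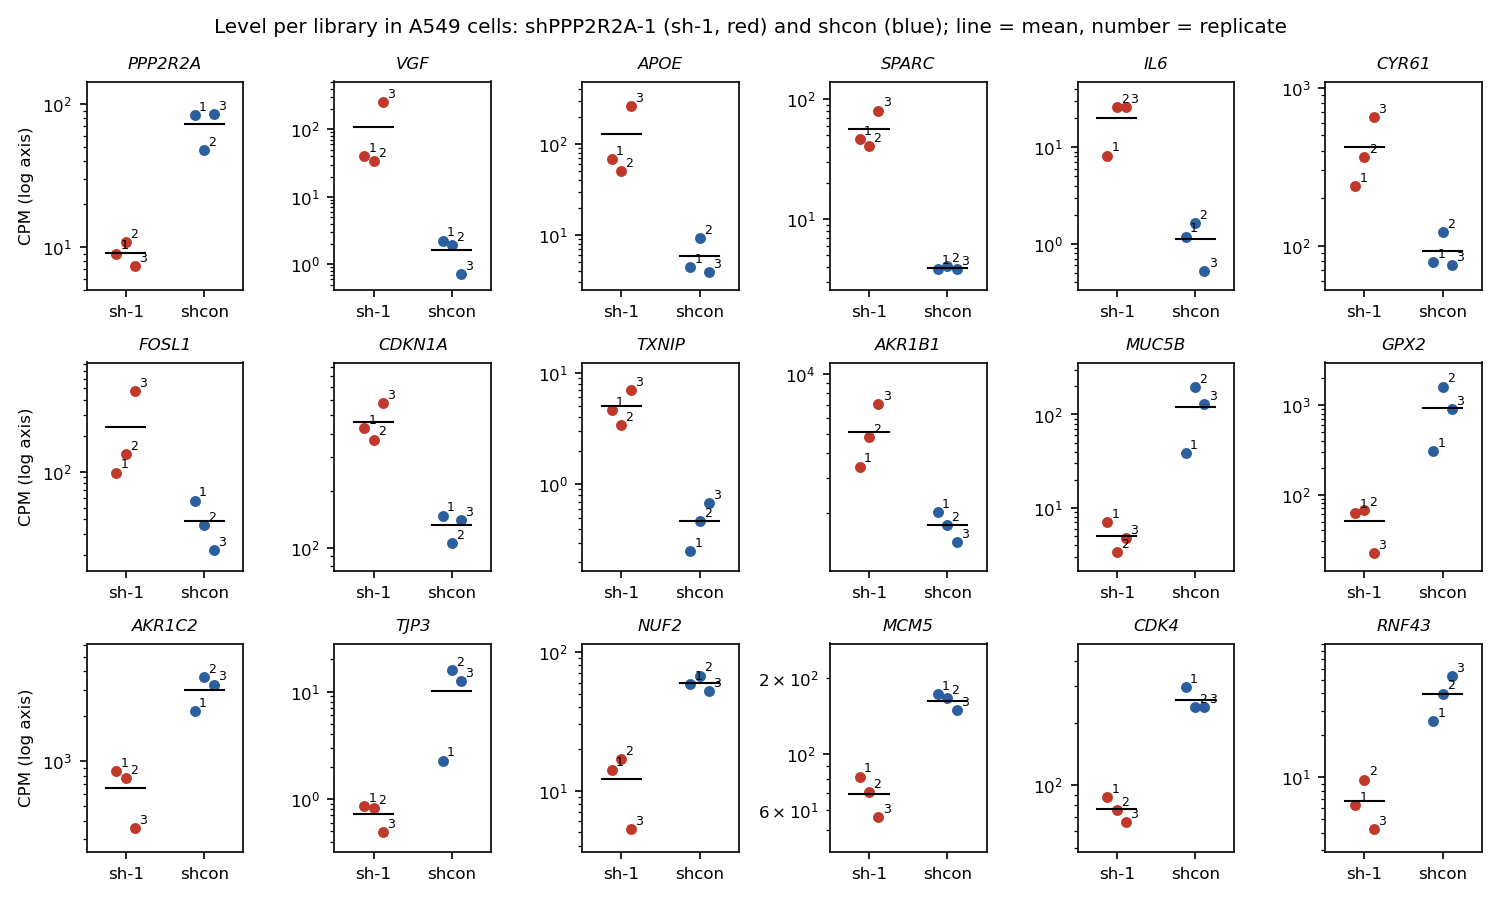
Level in CPM (log axis) of 18 named genes in each library, shPPP2R2A-1 (sh-1, red) left and shcon (blue) right; each point is a library with its replicate number and the line is the mean of 3. No gene shown has overlapping groups, and shPPP2R2A-1 replicate 3 is the highest for VGF, APOE and FOSL1 and the lowest for GPX2, NUF2 and AKR1C2.

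Replicates of a group differed unevenly. Over 12337 genes with a mean of at least 100 counts, Pearson's r of log2 CPM across genes was 0.983 between shPPP2R2A-1 replicates 1 and 2, and 0.949 and 0.952 between replicate 3 and those. In shcon it was 0.983 between replicates 1 and 3, and 0.952 and 0.960 between replicate 2 and those. Between the groups it ran from 0.858 (shPPP2R2A-1 replicate 3 with shcon replicate 3) to 0.965 (replicate 1 of each), so replicate 1 of shPPP2R2A-1 was closer to a control than to its own replicate 3. More than 2-fold differences were seen in 1.44% of genes between shPPP2R2A-1 replicates 1 and 2, in 10.5% and 9.82% between these and replicate 3, in 2.74% between shcon replicates 1 and 3, and in 10.0% and 7.30% between these and replicate 2. The biological coefficient of variation was 0.259 in shPPP2R2A-1 and 0.254 in shcon. A first principal component with 60.8% of the variance placed all shPPP2R2A-1 libraries on one side and all shcon libraries on the other, and a second with 22.5% placed shcon replicate 2 and shPPP2R2A-1 replicate 3 on one side.

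Replicate 3 of shPPP2R2A-1 lay furthest from the controls in several lists. Mitotic genes had a median of -0.72, -0.74 and -1.90 log2 units relative to the mean of shcon in shPPP2R2A-1 replicates 1, 2 and 3, against 0.29, -0.26 and -0.01 in the shcon libraries. Replication genes had -0.58, -0.54 and -1.21, against 0.13, -0.16 and -0.01. In both lists replicate 3 was lower than the other two, whereas for DNA damage-induced genes the 3 values were closer, at 0.57, 0.57 and 0.89 against 0.09, -0.09 and 0.06. Replicate 3 deviated more than 2-fold from the other two for 612 genes upward and 438 downward, and shcon replicate 2 for 347 upward and 593 downward. The deviations of both libraries correlated at r = 0.49 across genes, which are not independent replicates. Mitochondrially encoded mRNAs moved with both libraries, at 0.13, 0.80 and 1.10 in shPPP2R2A-1 and -0.53, 1.01 and -0.53 in shcon, and what set these libraries apart was not tested.

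**Figure D4:**
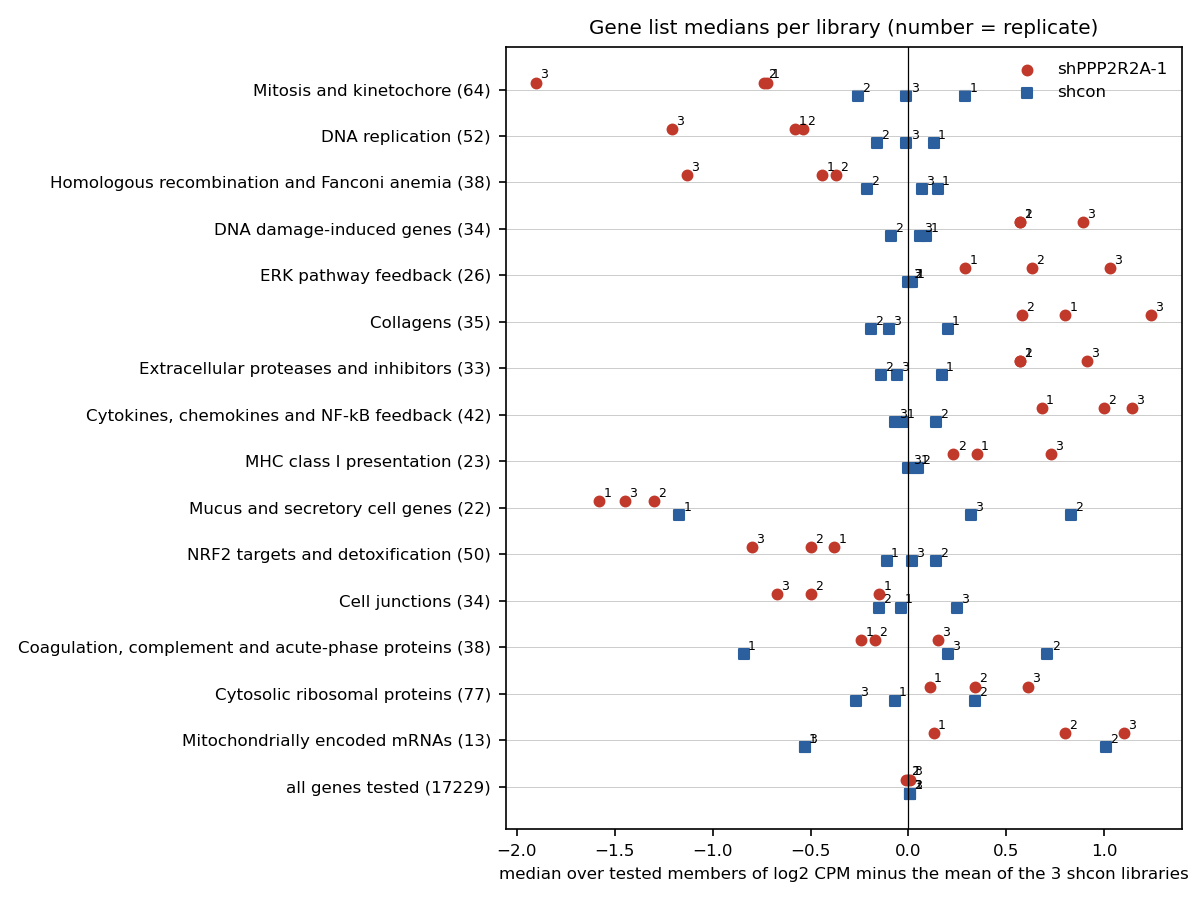
Median over the tested members of each gene list of log2 CPM minus the mean of the 3 shcon libraries, for each shPPP2R2A-1 library (red circles) and each shcon library (blue squares), numbered by replicate. Mitotic genes are lowest in shPPP2R2A-1 replicate 3 (-1.90), and the mucus list lies at -1.17 in shcon replicate 1, near the shPPP2R2A-1 values.

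The genes with the most spread inside a group were mostly not called. Within shPPP2R2A-1 they were FOSB, an AP-1 subunit, at 6.08, 137 and 59.4 CPM, ELOVL4, a fatty acid elongase, at 2.35, 2.12 and 0.220 CPM, and MIF, a cytokine-like protein, at 25.4, 5.24 and 62.4 CPM, followed by MRPL12, ST6GALNAC1 and CYP4F3. Within shcon they were KRT121P, a pseudogene, at 36.3, 31.3 and 1.04 CPM, and the secreted plasma or innate immune proteins CP (9.55, 112 and 96.0 CPM), LBP (0.127, 2.06 and 1.17 CPM), LCN2 (2.19, 28.9 and 13.3 CPM) and CFI (0.552, 7.59 and 2.44 CPM), with C10orf10. FOSB differed by over an order of magnitude in both groups, and shcon replicate 1 was the lowest for CP, LBP, LCN2 and CFI. An SD of log2 CPM above 1 was found for 114 genes in shPPP2R2A-1 and 173 in shcon.

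The number of calls depended on which libraries were compared. They were lowest when shcon replicate 3 was left out, 495 higher and 423 lower. Leaving out shPPP2R2A-1 replicate 3 gave 718 and 683, and leaving out shPPP2R2A-1 replicate 2 gave 651 lower genes. Without shPPP2R2A-1 replicate 3 and shcon replicate 2 together, chosen after seeing the data, they were 1037 and 1154. Of 237 named genes that were called, 139 kept their call in all 14 alternatives, another 14 kept it in each of the 12 or 13 that gave them a value, and none turned its direction. Low counts in single lists moved too. When shcon replicate 3 was left out, higher genes numbered 3 for BMP and ID genes, 1 for fatty acid genes and 2 for fibroblast markers, and lower genes numbered 1 for BMP and ID genes, 1 for TGF-beta genes and 0 for MondoA targets. Leaving out shcon replicate 2 gave 6 lower genes of nucleotide supply and 3 higher HOX genes.

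The second hairpin gave a direct comparison of the same line with another sequence against the same gene. Of 17229 genes, 1379 were higher (8.0%) and 1644 lower (9.54%) in shPPP2R2A-1 than in shPPP2R2A-2 cells. PPP2R2A did not pass in that contrast (log2 fold change -0.51, SE 0.25, adjusted p = 0.18), and for shPPP2R2A-2 against shcon its log2 fold change was -2.47. The contrasts with shcon share their control libraries, so only the direct test is read as a difference.

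VGF was the most raised over shPPP2R2A-2 (log2 fold change 7.14, adjusted p = 0.0011), with 6.08 for shPPP2R2A-1 and -1.05 for shPPP2R2A-2 against shcon. DAW1 (4.47), UNC13A (4.23), a synaptic vesicle priming factor, BMF (4.16) and POM121L9P (3.83) followed. UNC13A was not called against shcon for shPPP2R2A-1 (adjusted p = 0.27) and was -4.95 for shPPP2R2A-2. HABP2, a plasma serine protease, was the most reduced, at -5.51 (adjusted p = 0.00015), being -2.94 with shPPP2R2A-1 and 2.57 with shPPP2R2A-2 against shcon. GPX2 (-5.10), CYP4F12 (-4.37), EPS8L3 (-4.34), a regulator of actin in microvilli, and PRODH (-4.02) were next, and none of these 4 passed for shPPP2R2A-2 against shcon (adjusted p = 0.22, 0.2, 0.099 and 0.48). CDK4 was lower than with shPPP2R2A-2 (-1.39, adjusted p = 0.00061), as were TFDP1 (-1.33), HNF4A (-2.09) and RNF43 (-3.06). IL6 was higher (3.22, adjusted p = 0.0035) and CCL2 lower (-1.48, adjusted p = 0.0097). CDKN1A (-0.98, adjusted p = 0.0094), BTG2 (-0.90) and SESN1 (-0.95) were lower with shPPP2R2A-1 than with shPPP2R2A-2 while higher than in shcon. For NUF2 and FOXM1 the difference did not pass (-0.70 with SE 0.33 and -0.41 with SE 0.28). Leaving out shPPP2R2A-2 replicate 2 gave 531 higher and 918 lower genes, and leaving out shPPP2R2A-1 replicate 2 gave 714 and 959. The higher genes numbered 904 when shPPP2R2A-2 replicate 1 was left out and 845 when its replicate 3 was.

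**Figure D5:**
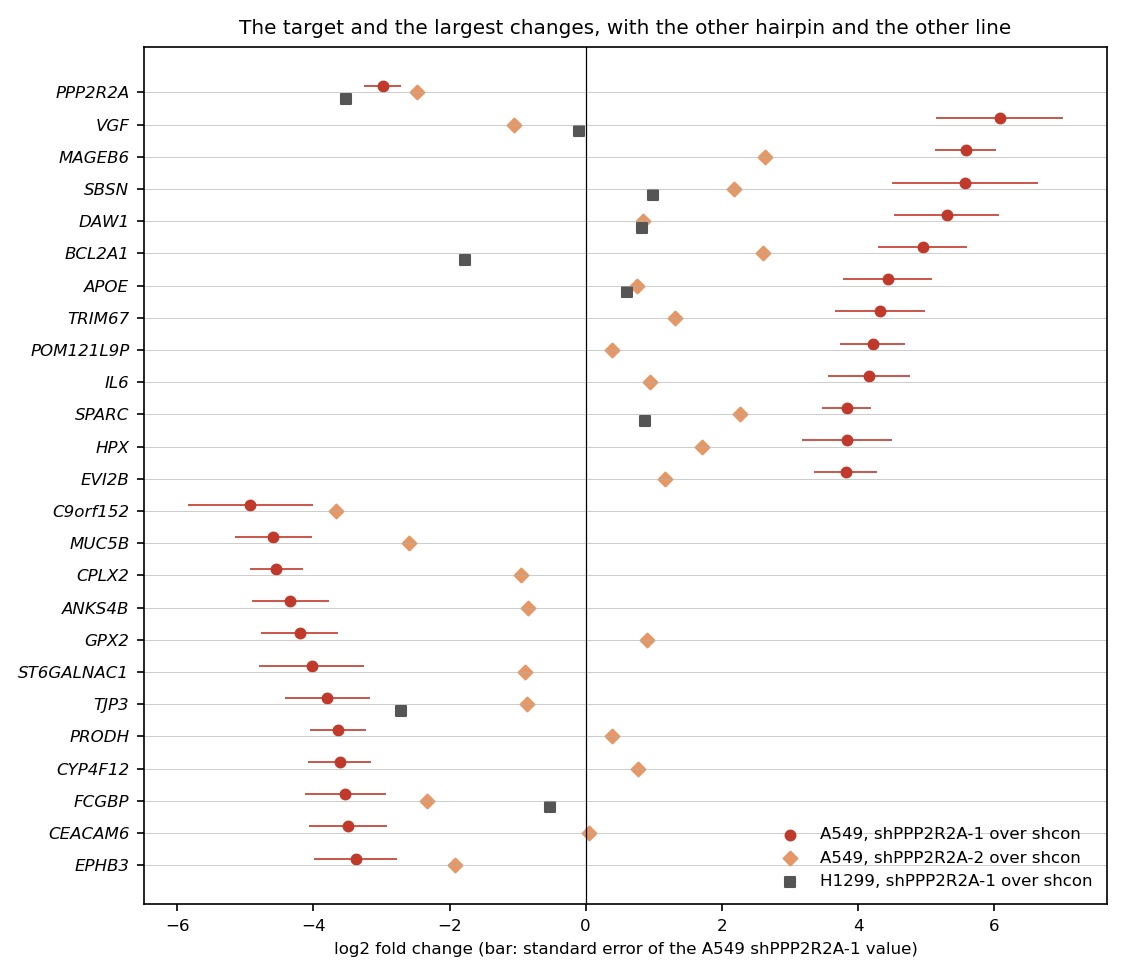
Log2 fold change over shcon of PPP2R2A and the 24 largest rises and falls for shPPP2R2A-1 in A549 (red circles, bar: standard error), shPPP2R2A-2 in A549 (orange diamonds) and shPPP2R2A-1 in H1299 (grey squares, where the gene could be tested). PPP2R2A was -2.98, -2.47 and -3.52, and VGF was 6.08, -1.05 and -0.09.

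In H1299 the same hairpin gave a PPP2R2A log2 fold change of -3.52, and the difference between lines did not pass (A549 minus H1299 0.50, SE 0.34, adjusted p = 0.51). Of 18827 genes tested for that difference, 152 responded more upward in A549 (0.807%) and 54 more downward (0.287%). Of the 2357 genes called in A549, 511 had too few counts in H1299 for a fold change there. The largest positive differences were BCL2A1 (6.66, adjusted p = 0.0053), VGF (6.11, adjusted p = 0.0088), MPP4 (5.73), a scaffold of the MAGUK family, UCN2, a urocortin peptide (4.67), and RP5-1028K7.2 (4.57). The largest negative ones were the lysophosphatidic acid receptor LPAR6 (-7.07), the lysosomal protease CTSZ (-5.02), AKR1B10 (-4.07, adjusted p = 0.0051), FILIP1 (-3.41) and the ephrin receptor EPHA7 (-3.31). LPAR6 and CTSZ were not called in A549 (adjusted p = 0.35 and 0.8), and AKR1B10 was -1.73 in A549 against 2.31 in H1299. SPARC (2.91, adjusted p = 0.0053), HBEGF (2.29, adjusted p = 0.0053) and ACTA2 (1.84, adjusted p = 0.018) had more positive responses in A549, and POLE a more negative one (-1.10, adjusted p = 0.0088). For CDK4 (0.28, SE 0.26), NUF2 (-0.40, SE 0.40), CDKN1A (1.35, SE 0.40) and TFDP1 (-0.13, SE 0.29) the difference between lines did not pass, at adjusted p of 0.65, 0.67, 0.12 and 0.89. The counts more upward and more downward were 25 and 6 without A549 shcon replicate 3, 39 and 10 without A549 shPPP2R2A-1 replicate 3, and 197 and 81 without A549 shcon replicate 1, and 94 were more upward without A549 shcon replicate 2 and 33 more downward without A549 shPPP2R2A-1 replicate 2. Leaving out H1299 shPPP2R2A-1 replicates 1, 2 and 3 in turn gave 49 and 14, 69 and 35, and 33 and 19. Leaving out H1299 shcon replicates 1, 2 and 3 gave 93 and 26, 50 and 16, and 84 and 27.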

How the data were processed

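Polyadenylated RNA of A549 and H1299 cells was sequenced from stranded TruSeq libraries. The authors deposited raw read counts per gene and, beside them, normalized counts, a signal scaled between samples that was not used here. Per the submitters' processing notes the tools were STAR 2.7.3a, Cufflinks 2.2.1, HTSeq 0.11.2, Bowtie2, cutadapt 2.5, FastQC 0.11.8 and DESeq2, on the human build GRCh37/hg19. Their settings are not given in the sources used here. Every count column matched 1 sample label (0 unmapped columns), and all rows name a gene.

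Counts of all 9 A549 libraries entered 1 fit in R 4.3.3 with edgeR 4.0.16 and limma 3.58.1 (TMM scaling, filterByExpr by group, robust quasi-likelihood F test, Benjamini-Hochberg adjustment over all genes tested, threshold 0.05). The contrasts were shPPP2R2A-1 minus shcon and shPPP2R2A-1 minus shPPP2R2A-2. The difference in response between lines was an interaction contrast in 1 fit of all 18 libraries. Fold changes are the log2 values of edgeR's fit, with its default prior count. CPM are counts scaled to the TMM-adjusted library size. Log2 CPM has a prior count of 2 and was used for SDs, correlations, principal components and list medians per library. The procedure was tested on simulated data. Totals of the 6 compared libraries ran from 40912473 to 60152098 counts, so counting error was small beside the spread between replicates. No 2 replicates of a group agreed within sampling noise. With 3 samples a group, an exact permutation test of a single gene cannot go below p = 0.1, so p-values come from the fits across all genes.

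Genes were named by a rule, of which the text gives a part: PPP2R2A, the 12 largest rises and 12 largest falls among called genes averaging 100 counts or more with no overlap between groups, the 8 called genes with the highest CPM, up to 5 called members of each list by adjusted p, 5 each way against shPPP2R2A-2 and against H1299, and the 6 with the most spread in each group. Members that were not called, and MDM2, EPCAM, MASTL, PLK1, NCAPD2, INCENP, SPC25 and others given for their role or promoter, were chosen after their values were seen. The members, the 57 gene lists (1853 of 1859 genes found) and the promoter words were chosen with earlier results of these data known. Promoters are RefSeq's on GRCh38.p14 and matched 1387 of the 1853. Of 6 words searched, no stretch is printed for TGACTCA. It was in 3 of 9 called-higher extracellular proteases and inhibitors with a promoter and in 1 of 13 not called. The share was 4.16% of all promoters (2.73% of those of tested genes). Alternatives were DESeq2 1.42.0, median-of-ratios scaling, no filter, a mean of at least 100 counts, other sets of libraries, the replicate number as a block and each replicate left out. Some genes are not reported here.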

Additional observations from a re-analysis of the deposited data

Results flagged for a closer look

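Of 25 genes looked at, PPP2R2A and the 24 largest rises and falls, 6 had a response to shPPP2R2A-1 that differed between A549 and H1299 by the interaction test. Over all 18827 genes tested, 0.807% were more upward in A549 and 0.287% more downward. The 24 genes were picked for large changes in the A549 libraries that also enter this test. Their number is therefore no separate evidence of a difference between lines. A549 minus H1299 on the log2 scale, the difference was 6.66 for BCL2A1, 6.11 for VGF, 4.45 for DAW1, 3.76 for APOE and 2.91 for SPARC, all more positive in A549, and -3.06 for the mucus protein FCGBP, more negative in A549.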

How the results depend on the processing

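Against shcon, DESeq2 gave 1802 lower genes and no filter on low counts 1820, where 1092 were reported, and a fit of the 6 compared libraries alone gave 818 higher and 539 lower. Leaving out single libraries gave 495 to 1422 higher and 423 to 1309 lower. Against shPPP2R2A-2 it gave 531 to 1542 higher and 918 to 2090 lower. For A549 minus H1299, reported at 152 more upward and 54 more downward, DESeq2 gave 528 and 216, no filter 530 and 374, the 12 libraries with shPPP2R2A-1 or shcon 32 more downward, and leaving out single libraries 25 to 197 and 6 to 81. Other scalings and filters stayed within 1.5 times the reported counts. The cause of these shifts was not tested, apart from the number of genes or samples that a setting itself changes. No named gene that was called turned its direction in any of the 14 alternatives that gave it a value. Of 237 called named genes, 0 lost their call with DESeq2, 40 of 235 with the 6 libraries alone and 72 without shcon replicate 3.

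With the replicate number as a block, 898 genes were higher and 721 lower against shcon, 1022 and 1305 against shPPP2R2A-2, and 113 more upward and 32 more downward in A549 than in H1299, and 22 of the 237 named calls ended. The deviations of same-numbered shPPP2R2A-1 and shcon samples from their group means correlated across genes at 0.358, -0.045 and -0.563 for numbers 1, 2 and 3. The deviations within a group sum to 0, so these values cannot show whether same-numbered samples were handled together. The labels do not say so either.

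Each library held at least 40912473 counts, and each group held 3 samples, 1 of which stood apart. Genes under about 1 CPM, such as FAP, VIL1 and ABCG1, rest on few counts, and their fold changes depend on the prior count of the fit.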
